A study of Mus musculus with 3 samples.

Results

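Tead2, Tead3 and Wwc1 are 3 of the 258 genes counted in single cells of 3 mouse mammary tumours, and were taken by name as genes of the Hippo pathway. All 3 were read far above the control codes in every tumour, and each was highest in epithelial tumour cells among the cell classes compared. Their layout within the epithelium differed. Between small tissue tiles, the coefficient of variation beyond counting error was 102, 52.7 and 71.8 percent for Tead2 in tumours 1, 2 and 3, above the median gene in tumours 1 and 3 and slightly below it in tumour 2. Tead3 and Wwc1 lay below the median gene in each tumour, at 19.1, 17.2 and 38.2 percent and 24.7, 25 and 27.3 percent. Wwc1 was higher in cycling than in other epithelial cells in 3 of 3 tumours, by 0.39 ± 0.12 on the log2 scale (SE), a difference that passed the threshold only under some of the settings tried.

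The Hippo pathway is a kinase chain that, when active, keeps the coactivators YAP and TAZ out of the nucleus. In the nucleus YAP and TAZ, which do not bind DNA themselves, act through TEAD transcription factors, and Tead2 and Tead3 encode members of that family. Wwc1 encodes KIBRA, a scaffold protein at the cell cortex that promotes activation of the LATS kinases and so acts upstream, against YAP and TAZ. Of the other pathway genes looked for, Tead1 (a TEAD factor) and Fat1 (an atypical cadherin known as an upstream input) were read, and the coactivators and kinases were not analysed here. RNA levels of these genes do not measure the activity of the pathway.

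The tumours are titled MMTV-PyMT WT. MMTV-PyMT mice express the polyoma middle T oncogene from a viral promoter active in mammary epithelium and develop mammary carcinomas. The labels do not say what WT stands for, nor the age or strain of the mice. Fixed, paraffin-embedded sections were imaged by MERSCOPE, which reads single RNA molecules in place over repeated rounds of hybridization and assigns them to outlined cells. The tumours form 1 group with no control, so cells are compared within tumours and the tumour is the replicate (n = 3). With the tumour as a block, p-values rest on how within-tumour differences vary over these 3 samples. The estimate of the spread is pooled over groups fitted jointly and shared in part between genes. The tables held 71492483, 60759690 and 78051090 panel transcripts in 663145, 513963 and 786165 cells, and 27 blank codes that match no gene took 0.503%, 0.481% and 0.496% of all decoded transcripts. A level is given as transcripts of a gene per 1000 panel transcripts of the same cells, and levels are not compared between genes.

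Tead2 lies on chromosome 7 at 45215792 to 45233468, Wwc1 on chromosome 11 at 35838399 to 35980527 and Tead3 on chromosome 17 at 28331671 to 28350805 (GRCm38.p6, RefSeq), and all 3 are protein coding. RefSeq promoter windows, from 250 bases before to 50 after a start site, were searched on both strands for GGAATG, whose reverse complement is CATTCC, the core letters that TEAD factors are known to bind. The windows of Tead2 (chr7:45215542-45215841) and Wwc1 (chr11:35980478-35980777) held no match. Of 3 Tead3 windows, those at chr17:28350551-28350850 and chr17:28350756-28351055 held 3 and 1 matches, and that at chr17:28350297-28350596 held 0. The stretches below, on the minus strand and 5′ to 3′, show the matches in capitals, since TEAD genes are here both the factors and the genes measured.
Tead3, chr17:28350581-28350610: aggtaagcccggGGAATGcaactcggaggc
Tead3, chr17:28350706-28350735: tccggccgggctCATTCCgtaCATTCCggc
Tead3, chr17:28350970-28350999: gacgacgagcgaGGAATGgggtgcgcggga
A match occurred in 14.7% of all 32851 windows and in 15.1% of the 238 windows of panel genes, and is a description only.

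In gated epithelial cells, Tead2 stood at 11.1, 16.8 and 10.2 per 1000 in tumours 1, 2 and 3. These cells had at least 2 transcripts over Cdh1, Krt7, Cldn4 and Gata3 and passed no stromal or immune gate. Tead3 stood at 11.8, 10.2 and 9.96 and Wwc1 at 35.6, 33 and 39.6. Tead2 was highest in tumour 2, Tead3 in tumour 1 and Wwc1 in tumour 3. The highest blank code in the same cells reached 0.398, 0.388 and 0.353 per 1000. Over all kept cells the members stood at 20.7, 35 and 22.1 times the highest blank for Tead2, 22.6, 22.4 and 24.3 times for Tead3 and 67.1, 71.3 and 93.1 times for Wwc1.

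Most epithelial cells held Wwc1. At least 1 Wwc1 transcript was found in 88.2%, 88% and 90.9% of 367032, 286100 and 424172 epithelial cells in tumours 1, 2 and 3, while the highest blank was found in 3.97%, 4.62% and 3.95%. Tead3 was found in 63.2%, 62.9% and 60.8% of cells, a nearly even share. Tead2 was found in 45.7%, 68.9% and 53.8%. Each cell with 50 or more transcripts was then thinned to 50, which left out 52689, 39935 and 59802 shallower cells. Tead2 was found in 32.8%, 50.2% and 35.5% of the thinned cells, Tead3 in 43.7%, 39.5% and 39.4%, Wwc1 in 78.4%, 76.5% and 82.3% and the highest blank in 1.95%, 1.96% and 1.77%. Tumour 2 thus kept the largest share of Tead2-positive cells at equal depth. The highest count in a single cell was 61, 43 and 34 for Tead2, 14, 17 and 14 for Tead3 and 46, 59 and 53 for Wwc1.

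To see in which cell types the genes are expressed, cells were gated as endothelial (Pecam1 and Cdh5), pericyte (Pdgfrb and Rgs5), matrix fibroblast (Col1a1 with Postn or Lrrc15), adventitial-type fibroblast (at least 2 of Pi16, Dpt and Clec3b) or macrophage (Adgre1 and Cx3cr1), with 1 transcript of a marker enough. Each class was set against the epithelial cells of the same tumours with edgeR's quasi-likelihood test on summed counts, with the tumour as a block and Benjamini-Hochberg adjustment over 242 genes at a threshold of 0.05. All 5 comparisons share the epithelial sums and 1 joint fit, which pools its estimate of the spread over the classes. The SE was derived from the test statistic of that fit. It is therefore not the spread of a single class over the tumours. In bulk sums of this kind, fewer expressing cells and less RNA per cell cannot be told apart.

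The 3 genes were lower in endothelial cells, which line vessels. Tead2 stood at 8.33, 11.7 and 6.77 per 1000 in endothelial cells of tumours 1, 2 and 3, against 11.1, 16.8 and 10.2 in epithelial cells. Tead3 stood at 5.03, 5.25 and 5.78 in endothelial cells, against 11.8, 10.2 and 9.96 in epithelial cells. Wwc1 stood at 16.7, 19.1 and 25.1 in endothelial cells, against 35.6, 33 and 39.6 in epithelial cells. Endothelial values were lower in 3 of 3 tumours for each gene, and the groups did not overlap for Tead3 and Wwc1, while 26.4% of all genes tested lay lower with no overlap. The log2 fold changes were -0.51 ± 0.082 (SE) for Tead2, -0.99 ± 0.086 for Tead3 and -0.84 ± 0.088 for Wwc1, with edgeR adjusted p of 5.64e-05, 1.38e-07 and 8.39e-07. All 3 members fell, beside 45.0% of all genes tested, whose median log2 fold change was -0.27. Tead1 and Fat1 fell as well, by 0.53 ± 0.10 and 0.94 ± 0.077 on the log2 scale (edgeR adjusted p = 3.11e-04 and 8.08e-08).

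Macrophages and adventitial-type fibroblasts also had less of each gene. In macrophages Tead2 stood at 9.45, 13.9 and 8.0, Tead3 at 8.01, 7.69 and 8.24 and Wwc1 at 23, 26 and 32.5 per 1000. In adventitial-type fibroblasts Tead2 stood at 10.6, 12.3 and 7.22, Tead3 at 9.29, 7.68 and 7.83 and Wwc1 at 29.3, 24.7 and 32. Each value lay below the epithelial value of its tumour, and the ranges over tumours overlapped for Tead2 and not for Tead3 or Wwc1. The highest Wwc1 value in macrophages, 32.5, lay just under the lowest in epithelial cells, 33. Of all genes tested, 4.96% in macrophages and 8.68% in adventitial-type fibroblasts lay lower with no overlap. The log2 fold changes in macrophages were -0.29 ± 0.082 for Tead2, -0.42 ± 0.085 for Tead3 and -0.42 ± 0.088 for Wwc1, with edgeR adjusted p of 0.0141, 0.00133 and 0.00147. In adventitial-type fibroblasts they were -0.33 ± 0.082, -0.37 ± 0.085 and -0.33 ± 0.087, with edgeR adjusted p of 0.00443, 0.00303 and 0.00706. Of all genes tested, 11.6% fell in macrophages and 16.5% in adventitial-type fibroblasts. The Tead2 calls were lost without tumour 2 or without tumour 3, with edgeR adjusted p of 0.112 and 0.113 in macrophages and 0.129 and 0.0954 in adventitial-type fibroblasts. All 3 adventitial-type calls were lost when gate genes were left out of the totals (edgeR adjusted p = 0.0875, 0.0623 and 0.115). Without tumour 2 the Tead3 and Wwc1 calls in adventitial-type fibroblasts were lost too (edgeR adjusted p = 0.0807 and 0.113).

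In matrix fibroblasts, cells of the collagen-rich stroma, Tead2 stood at 8.81, 11.5 and 6.34, Tead3 at 9.85, 8.30 and 9.76 and Wwc1 at 29.6, 26.3 and 36 per 1000. Tead2 fell by 0.52 ± 0.081 on the log2 scale and Wwc1 by 0.24 ± 0.087 (edgeR adjusted p = 2.09e-04 and 0.0431), beside 16.1% of all genes. Tead3 had -0.20 ± 0.085 and did not pass (edgeR adjusted p = 0.0819). The Wwc1 call was lost without tumour 2 or tumour 3 (edgeR adjusted p = 0.299 and 0.0927). It was also lost with gate genes left out of the totals, with TMM and with scaling by volume (edgeR adjusted p = 0.492, 0.0514 and 0.670), and DESeq2 called Tead3 (adjusted p = 0.0252, with 30.2% of all genes lower). In pericytes, the contractile cells around small vessels, Tead2 stood at 10.5, 16.3 and 8.93, Tead3 at 9.88, 9.23 and 9.11 and Wwc1 at 26.8, 28 and 34.7. Wwc1 fell there by 0.28 ± 0.087 (edgeR adjusted p = 0.0213), beside 16.1% of all genes. Tead2 had -0.10 ± 0.081 and Tead3 -0.18 ± 0.085 in pericytes, and neither passed (edgeR adjusted p = 0.343 and 0.109). DESeq2 and a fit of pericytes alone called Tead3 (adjusted p = 0.0120 and, in edgeR, 0.0418), with 25.6% and 26.4% of all genes lower. The pericyte Wwc1 call was lost without any 1 tumour (edgeR adjusted p between 0.0582 and 0.0941), with gate genes left out of the totals and with scaling by volume (edgeR adjusted p = 0.0571 and 0.258).

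Epithelial transcripts were present in every class, and their part in these levels was not tested. The 4 epithelial markers together took 29.7 to 35.5 per 1000 in endothelial cells, 42.6 to 54.1 in pericytes, 44.9 to 54.8 in matrix fibroblasts, 52.3 to 58 in adventitial-type fibroblasts and 49.8 to 55.1 in macrophages, against 61.7 to 73 in epithelial cells. The matrix fibroblast gate took 25.4%, 23.8% and 19.5% of cells in the tissue. The comparison was therefore repeated with class cells that held no epithelial marker transcript, an alternative chosen after seeing the data, over 230 genes. This kept shallow cells, with median transcripts of 50 to 80, against 93, 104 and 100 in the unchanged epithelial cells. Cells that passed no gate and held no epithelial marker transcript, at medians of 37, 35 and 37, had Tead2 at 5.86, 7.99 and 8.05 per 1000, Tead3 at 9.81, 7.58 and 10.5 and Wwc1 at 25.3, 17.2 and 31. These lay below the epithelial values too, except Tead3 in tumour 3, and the part of the filter in the differences was not tested. In the class cells kept, Tead2 stood at 1.40, 1.66 and 1.66 per 1000 in adventitial-type fibroblasts, 2.01, 2.46 and 2.68 in matrix fibroblasts, 3.57, 3.94 and 5.70 in macrophages and 5.42, 5.49 and 4.92 in endothelial cells. Wwc1 stood at 1.69, 1.78 and 4.72 in adventitial-type fibroblasts, 3.56, 4.22 and 8.87 in endothelial cells, 5.91, 4.70 and 11.1 in matrix fibroblasts and 9.62, 8.33 and 15.4 in macrophages. Both genes were thus lowest in adventitial-type fibroblasts, with log2 fold changes of -3.01 ± 0.22 for Tead2 and -3.91 ± 0.25 for Wwc1 (edgeR adjusted p = 8.51e-11 and 1.66e-11). The highest blank in those fibroblasts reached 0.886, 1.03 and 1.12 per 1000. Tead2 lay not far above it in each tumour, as did Wwc1 in tumours 1 and 2, so the sizes of these changes are uncertain.

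Tead3 in pericytes moved least from the epithelial level under this restriction. It stood at 7.63, 9.40 and 8.34 per 1000 in pericytes without epithelial marker transcripts, against 11.8, 10.2 and 9.96 in epithelial cells, a log2 fold change of -0.35 ± 0.19 that did not pass (edgeR adjusted p = 0.110). In the same pericytes Tead2 stood at 3.78, 3.65 and 4.32 and Wwc1 at 3.62, 4.92 and 10.4, and both fell, by 1.68 ± 0.21 and 2.69 ± 0.24 on the log2 scale (edgeR adjusted p = 4.85e-07 and 6.47e-09). Tead3 was higher in pericytes than in the next class, matrix fibroblasts at 4.60, 4.37 and 5.96, in 3 of 3 tumours, a difference that was not tested. With gates of 2 transcripts per marker Tead3 in pericytes did pass, at -0.41 (edgeR adjusted p = 0.0153, beside 42.1% of genes lower), as did Tead3 in matrix fibroblasts, at -0.48 (edgeR adjusted p = 0.01, beside 31.4%). Endothelial cells had the least Tead3, at 1.58, 1.78 and 2.39. Among class cells without epithelial marker transcripts, 14 of the 15 member fits fell, beside 23.0% of genes in macrophages, 40% in pericytes, 41.3% in adventitial-type fibroblasts, 44.8% in endothelial cells and 48.7% in matrix fibroblasts. One blank code reached 5.14 per 1000 in the 237 such pericytes of tumour 2, above Tead2 and Wwc1 there, and another 2.53 in the 102 macrophages of tumour 3. Elsewhere the highest blank was at most 1.60 per 1000.

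**Figure D1:**
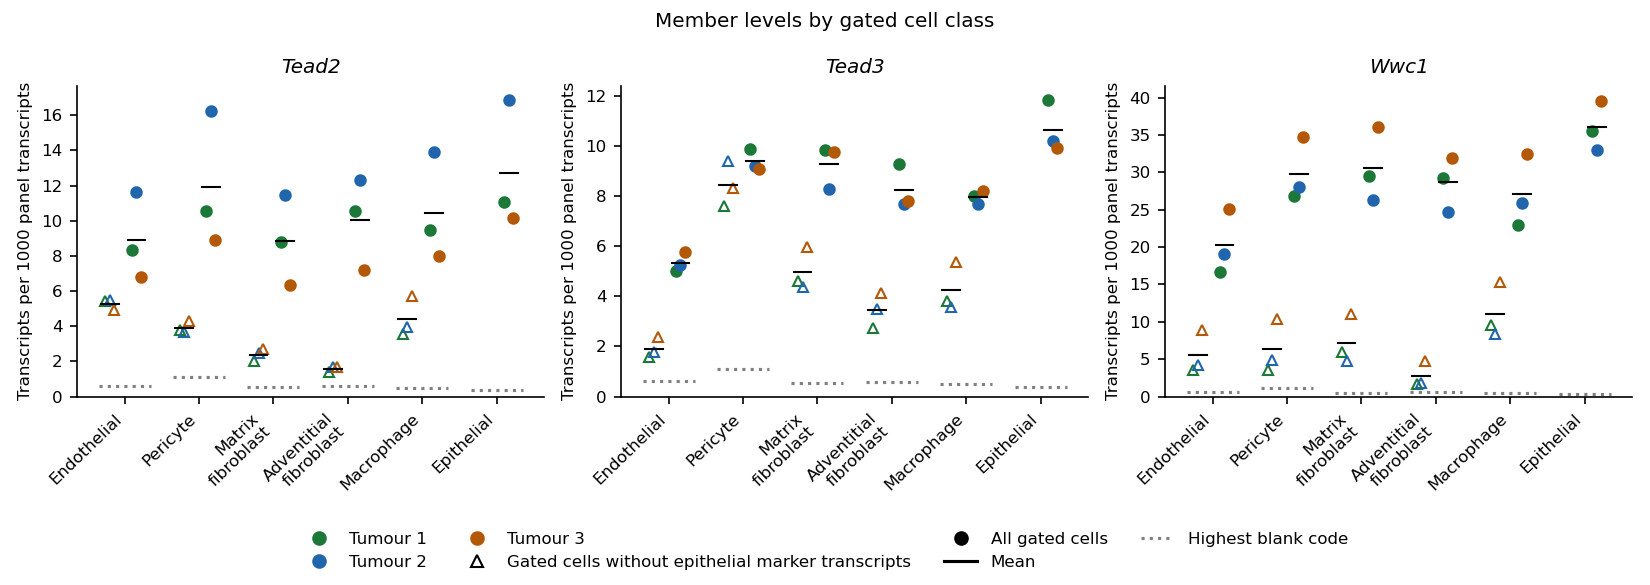
Transcripts of Tead2, Tead3 and Wwc1 per 1000 panel transcripts (vertical axes, from 0) in 5 gated stromal or immune classes and in epithelial cells, 1 point per tumour, with means as bars. Filled circles are all gated cells, open triangles are class cells without epithelial marker transcripts, and dotted lines are the highest blank code over the tumours in all gated cells. Triangles lie well below circles except for Tead3 in pericytes, at 7.63 to 9.40.

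With all gated cells, Tead2 averaged 12.7 ± 3.62 per 1000 in epithelial cells (SD, n = 3), 11.9 ± 3.86 in pericytes, 10.5 ± 3.08 in macrophages, 10.04 ± 2.60 in adventitial-type fibroblasts, 8.92 ± 2.50 in endothelial cells and 8.87 ± 2.56 in matrix fibroblasts. Neighbours in this order kept it in 3 of 3 tumours, except macrophages over adventitial-type fibroblasts and endothelial cells over matrix fibroblasts, which kept it in 2. Tead3 averaged 10.7 ± 1.02 in epithelial cells, 9.41 ± 0.414 in pericytes, 9.30 ± 0.870 in matrix fibroblasts, 8.27 ± 0.892 in adventitial-type fibroblasts, 7.98 ± 0.276 in macrophages and 5.35 ± 0.388 in endothelial cells. Wwc1 averaged 36.1 ± 3.34 in epithelial cells, 30.6 ± 4.94 in matrix fibroblasts, 29.8 ± 4.26 in pericytes, 28.7 ± 3.66 in adventitial-type fibroblasts, 27.1 ± 4.90 in macrophages and 20.3 ± 4.33 in endothelial cells. For Tead3 and Wwc1 epithelial cells stood above the next class, and endothelial cells below the one before, in 3 of 3 tumours. Adventitial-type fibroblasts stood above macrophages in 1 of 3 tumours for both genes. For Tead3, pericytes stood above matrix fibroblasts in 2 of 3. For Wwc1, matrix fibroblasts above pericytes and pericytes above adventitial-type fibroblasts also held in 2 of 3. These neighbours have no settled order. The order also depended on the gate. With gates of 2 transcripts per marker, Wwc1 was lowest in adventitial-type fibroblasts, at a mean of 2.29, against 11.1 in endothelial cells. Without epithelial marker transcripts the means were 2.73 and 5.55.

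Of genes reported as targets of YAP, TAZ and TEAD, Jag1, Sox9 and Thbs1 are described. Jag1, a Notch ligand gene, rose in endothelial cells and pericytes, by 0.56 ± 0.18 and 0.67 ± 0.18 (edgeR adjusted p = 0.0138 and 0.0109). Of all genes, 22.3% rose in endothelial cells, 18.2% in pericytes, 18.6% in matrix fibroblasts, 24.4% in adventitial-type fibroblasts and 21.1% in macrophages. Sox9, a transcription factor gene, fell in all 5 classes, and Thbs1, which encodes a matrix glycoprotein, fell in endothelial cells, macrophages and matrix fibroblasts. Tgfb2 lay below the highest blank in every tumour, at 0.315, 0.276 and 0.282 times it, and is not read further. In endothelial cells 1 of the 3 targets described rose and 2 fell, while all 3 members fell. Of 27 blanks set beside the genes, 5 were called higher and 10 lower in endothelial cells.

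Within the epithelium, 4 subsets were set against the remaining epithelial cells in 1 fit over 246 genes, and no member passed. This fit pools its estimate of the spread over the subsets, so an SE is not the spread of a single subset over the tumours. Wwc1 stood at 45.8, 43.1 and 51.9 per 1000 in cycling cells (Mki67 and Top2a), against 34.8, 32.1 and 40.4 in other epithelial cells. Cycling cells were higher in each tumour, by 0.40, 0.43 and 0.36 on the log2 scale. The fit gave 0.39 ± 0.12 (unadjusted p = 0.00768, edgeR adjusted p = 0.210), with 0.407% of all genes called higher. The call was made when the subset was fitted alone (edgeR adjusted p = 0.00707), with TMM normalization (0.45, edgeR adjusted p = 0.0282) and with DESeq2 (0.45, adjusted p = 1.75e-05). In those fits 8.94%, 1.22% and 4.88% of all genes were called higher. Cycling cells were deeper, with median transcripts of 132, 185 and 145, against 85, 98 and 89 in other epithelial cells. Among cells of 80 to 160 transcripts, an alternative chosen after seeing the data, the difference was 0.38 and did not pass (edgeR adjusted p = 0.499). Tead3 stood at 11.7, 10.2 and 10.7 in cycling cells, against 12.2, 10.3 and 10.9 in other epithelial cells. Tead2 stood at 9.78, 19.9 and 12.5 in cycling cells, against 11.6, 16.7 and 10.9, lower in tumour 1 and higher in tumours 2 and 3.

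Epithelial cells with Krt17, a stress keratin gene, and Fn1, the fibronectin gene, had lower values of all 3 members in each tumour, none of which passed. Tead2 stood at 8.30, 13.2 and 6.46 per 1000 in these cells, against 11.6, 16.7 and 10.9 in other epithelial cells. Tead3 stood at 9.72, 8.38 and 5.32, against 12.2, 10.3 and 10.9, and Wwc1 at 31.6, 27.1 and 28.7, against 34.8, 32.1 and 40.4. The gap for Tead3 was widest in tumour 3, and the 3 tumours held 5083, 1423 and 39639 such cells. The log2 fold changes were -0.52 ± 0.21, -0.52 ± 0.20 and -0.28 ± 0.12 (edgeR adjusted p = 0.115, 0.100 and 0.138), with 4.88% of all genes lower. Tead3 passed with DESeq2, at -0.46 (adjusted p = 0.0108), and with gates of 2 transcripts per marker, at -1.06 (edgeR adjusted p = 0.0457), where 12.2% and 7.69% of all genes were lower. The latter gates left 348, 58 and 7053 co-positive cells, and the 58 of tumour 2 were too few to enter. That result thus rests on tumours 1 and 3. Tead1 stood at 3.44, 4.14 and 5.58 in co-positive cells, against 3.20, 2.97 and 3.09, and did not pass (0.50 ± 0.17, edgeR adjusted p = 0.0725, with 6.1% of all genes higher). None of Jag1, Sox9 and Thbs1 was called in any of the 4 subsets.

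Basal keratin cells (at least 2 of Krt5, Krt14 and Krt15) had Wwc1 at 27.2, 25.9 and 35.4 per 1000, against 34.8, 32.1 and 40.4 in other epithelial cells, lower in 3 of 3 tumours. The log2 fold changes were -0.28 ± 0.12 for Wwc1, -0.32 ± 0.21 for Tead2 and -0.016 ± 0.19 for Tead3 (edgeR adjusted p = 0.297, 0.437 and 0.963). In cells with Il17b and a contractile gene they were -0.15 ± 0.12, -0.34 ± 0.21 and -0.29 ± 0.19 (edgeR adjusted p = 0.446, 0.319 and 0.361). Of all genes, 2.03% were called higher in basal keratin cells and 0.813% in the Il17b cells.

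**Figure D2:**
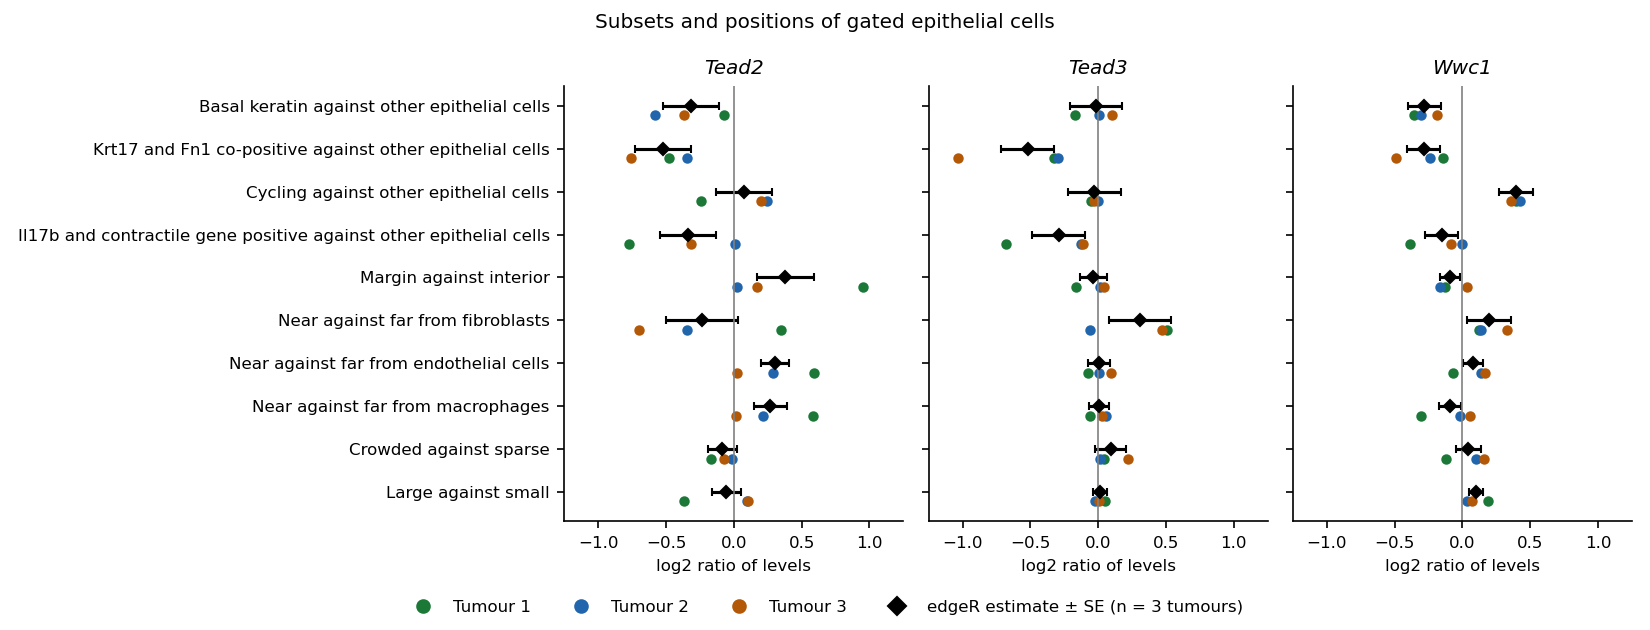
The log2 ratio of levels (horizontal axes) for each subset or position of epithelial cells against its comparison cells (rows), by gene. Coloured points are tumours, and black diamonds are edgeR estimates with bars of ± 1 SE (n = 3 tumours). The SE is that of the fit, pooled over the subsets where these are compared, and is not the spread of the coloured points. The tumours lie together for Wwc1 in cycling cells, at 0.40, 0.43 and 0.36, and spread for Tead2 at the margin, at 0.95, 0.020 and 0.17.

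Cell density, cell shape and contact with other tissue are known inputs of the pathway, and positions were compared for that reason, with distances read as µm. No member passed at any position in edgeR's test on total counts with all 3 tumours. Margin cells, up to 150 µm from the tissue edge, had Tead2 at 18.3, 16.6 and 11.8 per 1000, against 9.48, 16.4 and 10.5 in interior cells at 500 µm or more. The gap was wide in tumour 1 and small in tumours 2 and 3, and the log2 fold change was 0.38 ± 0.21 (edgeR adjusted p = 0.252). Part of the tissue outline lay on the imaging limit in tumours 2 and 3, over 2875 and 3025 µm. The tissue was continued outward there, so that the limit was not taken as an edge. Tead3 and Wwc1 had -0.035 ± 0.10 and -0.089 ± 0.074 (edgeR adjusted p = 0.796 and 0.415). At the margin 26.4% of all genes rose, the median log2 fold change of all genes was 0.31, and 20 of 27 blanks rose too. By edgeR 69 genes were called at the margin, 0 without tumour 1, 0 without tumour 3 and 1 with TMM scaling. All blanks together took 6.50, 6.45 and 6.99 per 1000 at the margin, against 4.70, 4.43 and 4.65 in the interior, and their part in the result was not tested. With DESeq2, whose size factors follow the typical gene, Tead3 and Wwc1 fell, by 0.32 and 0.37 (adjusted p = 0.00367 and 0.00351), beside 20.2% of all genes lower.

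Tead2 differed between tumours along this distance. In bands of 0 to 150, 150 to 300, 300 to 500, 500 to 1000 and over 1000 µm from the edge it stood at 18.3, 18.1, 16.1, 15.2 and 7.15 per 1000 in tumour 1. In tumour 2 the bands held 16.6, 19.2, 20.8, 19.3 and 15.6, and in tumour 3 11.8, 7.90, 7.80, 8.32 and 11.2. The deepest band was the lowest in tumours 1 and 2 and not in tumour 3. Wwc1 ranged over the bands from 30.5 to 37.7, from 29.5 to 35.3 and from 39 to 40.5 in the tumours, and Tead3 from 10.6 to 12.6, from 9.99 to 10.9 and from 9.53 to 10.6.

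Epithelial cells within 25 µm of an endothelial cell had Tead2 at 12.6, 18.8 and 10.4 per 1000, against 8.33, 15.4 and 10.2 beyond 75 µm. Near cells were higher in 3 of 3 tumours, by 0.59, 0.29 and 0.024 on the log2 scale, and the estimate of 0.30 ± 0.10 did not pass (edgeR adjusted p = 0.0763, with 7.42% of all genes higher). Near macrophages Tead2 stood at 13.4, 18.3 and 10.3, against 8.98, 15.8 and 10.2 in far cells (0.27 ± 0.12, edgeR adjusted p = 0.475). The 3 tumours again ordered the same way, with tumour 1 showing the widest gap. Tead3 and Wwc1 had 0.0064 ± 0.078 and 0.075 ± 0.073 near endothelial cells and 0.0070 ± 0.075 and -0.089 ± 0.081 near macrophages. Near fibroblasts, at 15 against 50 µm, Tead2 differed by 0.35, -0.35 and -0.70 in tumours 1, 2 and 3, so the tumours went different ways. Tead3 and Wwc1 had 0.31 ± 0.23 and 0.20 ± 0.16 there (edgeR adjusted p = 0.443 and 0.489), with 642 far cells in tumour 1. By edgeR 0 genes passed near macrophages and 0 near fibroblasts, with 24 and 39 at an unadjusted p under 0.05. DESeq2 called 23 and 52, the latter with Wwc1 higher near fibroblasts, and edgeR on counts scaled by cell volume called 82 and 23. That scaling called Tead2 near endothelial cells (0.53, edgeR adjusted p = 0.00208) and near macrophages (0.56, edgeR adjusted p = 0.0246), beside 49.6% and 31.6% of all genes higher. It also called Wwc1 higher near endothelial cells.

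Crowded cells, the highest quartile by number of cells within 30 µm, had Tead2 at 11.3, 16.2 and 9.90 per 1000, against 12.7, 16.3 and 10.4 in the lowest quartile. Tead3 stood at 11.9, 10.2 and 10.6 in crowded cells, against 11.6, 10.1 and 9.10, and Wwc1 at 33.2, 33.4 and 40.4, against 36.2, 31.3 and 36.1. The log2 fold changes of -0.085 ± 0.11, 0.093 ± 0.11 and 0.044 ± 0.095 did not pass (edgeR adjusted p = 0.567, 0.554 and 0.763), while 6.59% of all genes did and the median of all genes was -0.19, and 11 of 27 blanks fell. By edgeR 87 genes were called without tumour 1, 50 without tumour 2 and 2 without tumour 3, against 17 with all. With DESeq2 Tead3 rose by 0.25 and Wwc1 by 0.20 (adjusted p = 0.0124 and 0.0468), beside 15.1% of all genes higher. Large cells, the highest quartile by volume, had Wwc1 at 38.2, 33.4 and 40.8, against 33.5, 32.6 and 38.8 in the lowest quartile, higher in 3 of 3 tumours. The log2 fold changes were 0.098 ± 0.052 for Wwc1, -0.054 ± 0.11 for Tead2 and 0.011 ± 0.051 for Tead3, and 0 genes passed by edgeR, with 49 at an unadjusted p under 0.05, 28 with DESeq2 and 116 by volume. The 116 genes, called in either direction, included Tead2, lower in large cells. Wwc1 passed in 1 of the fits without 1 tumour (edgeR adjusted p = 0.0293).

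The tissue was then divided into tiles of 100 µm with at least 10 epithelial cells, 4717, 6357 and 6789 tiles in tumours 1, 2 and 3. Tead2 at the 10th percentile, median and 90th percentile of tiles stood at 2.07, 6.36 and 31.9 per 1000 in tumour 1, then at 7.06, 14.5 and 25.9 in tumour 2 and at 2.50, 7.99 and 21.3 in tumour 3. Tead3 stood at 8.46, 11.7 and 15, at 7.23, 10.1 and 13.3 and at 4.90, 11.1 and 15.6. Wwc1 stood at 23.5, 34.2 and 48.1, at 20.7, 31.6 and 43.2 and at 23.4, 38.9 and 53.8. Tead2 covered the widest relative range in each tumour, and Tead3 had a low tail in tumour 3.

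Beyond counting error, the coefficient of variation between tiles was 102, 52.7 and 71.8 percent for Tead2, with ranks of 22, 72 and 36 among the 134 genes above the highest blank. It was 19.1, 17.2 and 38.2 percent for Tead3 (ranks 128, 132 and 100) and 24.7, 25 and 27.3 percent for Wwc1 (ranks 116, 121 and 125). The median gene had 46.8, 54.9 and 55.1 percent and the median blank 37.2, 40.7 and 44.8 percent, while the most variable blank reached 250, 931 and 778 percent, above every member. Tead2 was thus more variable than the median gene in tumours 1 and 3 and slightly less so in tumour 2, while Tead3 and Wwc1 lay below the median gene and the median blank in each tumour.

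**Figure D3:**
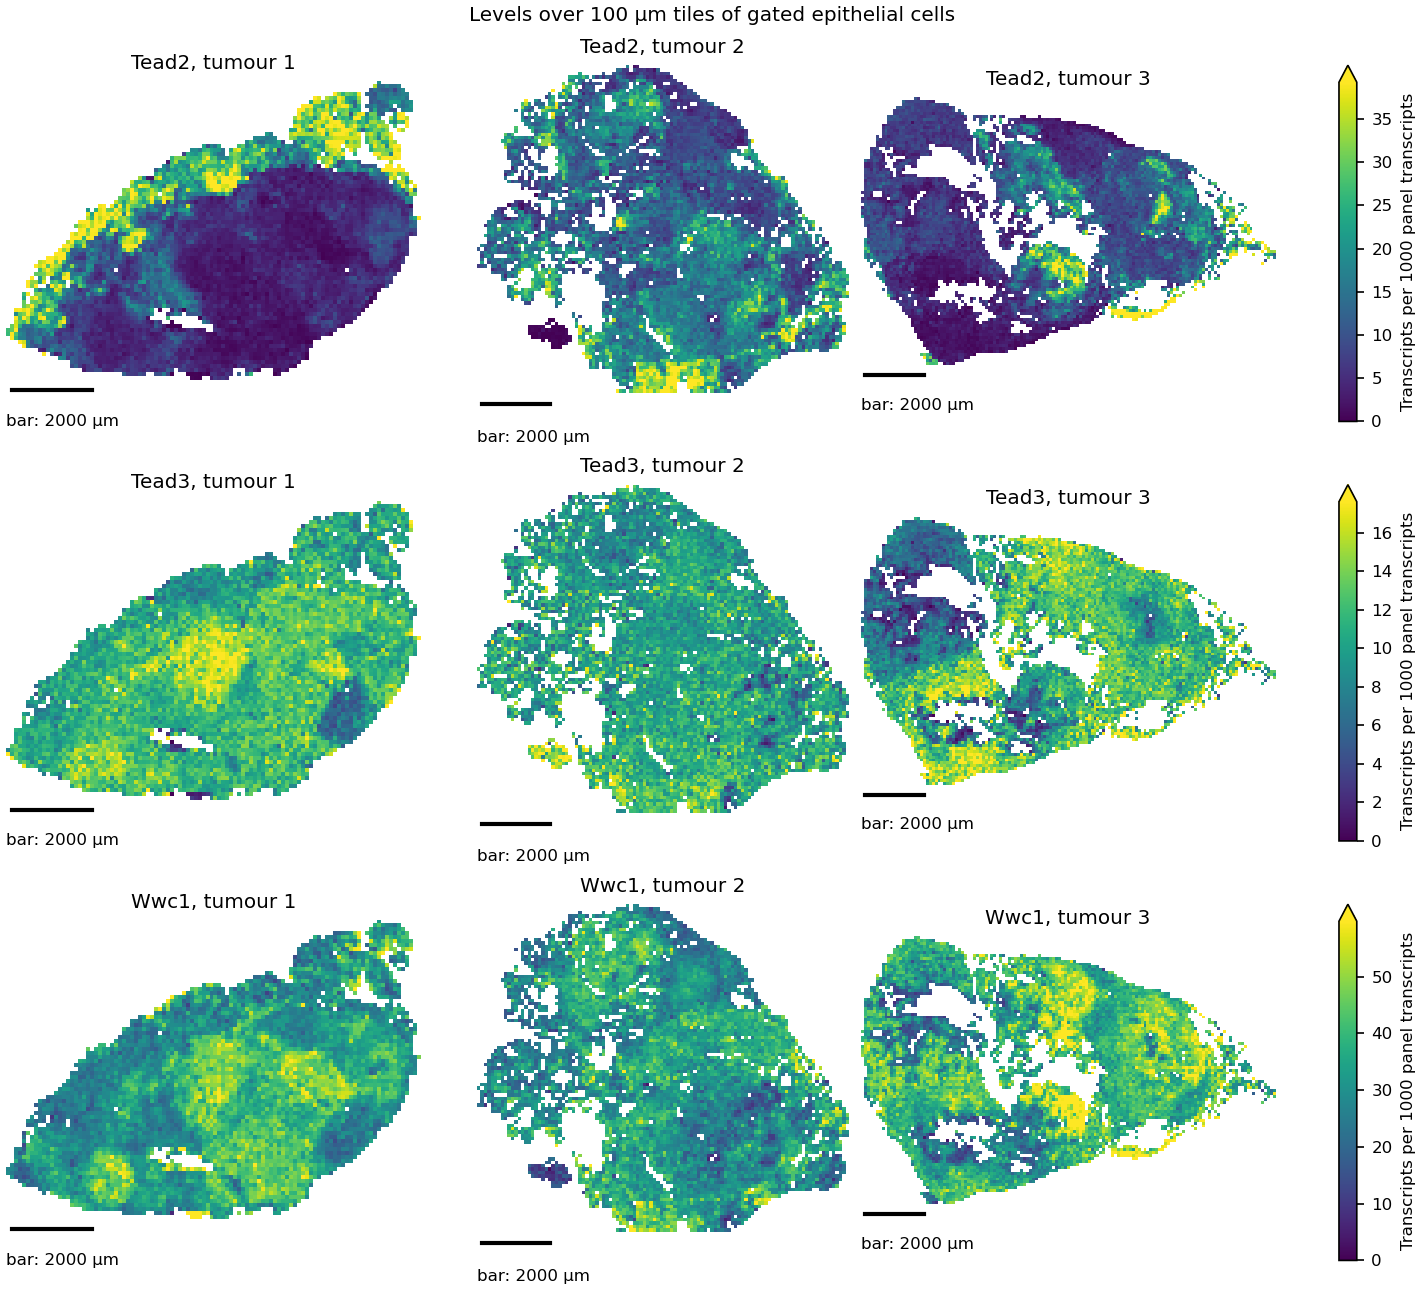
Maps of Tead2, Tead3 and Wwc1 (rows) in tumours 1 to 3 (columns), coloured by transcripts per 1000 panel transcripts in tiles of 100 µm, with bars of 2000 µm. Each gene has 1 colour scale for all tumours, arrowed at the top where higher tiles share the last colour, and white is no tile. Tead2 is high along one flank of tumour 1 and in patches of tumours 2 and 3, and Tead3 is low in one corner of tumour 3.

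The patterns extended over many tiles. For Tead2, tiles 500 µm apart shared 58.4%, 49.1% and 56.7% of the variance beyond counting error in tumours 1, 2 and 3, and tiles 1000 µm apart 36.8%, 23.7% and 36.6%. For Wwc1 the shares were 43.3%, 37.3% and 39.2% at 500 µm and 19.8%, 14.5% and 24% at 1000 µm. For Tead3 they were 49.7%, 40.04% and 75.6% and 20.7%, 25.8% and 63.5%. Tumour 3 had the highest share for Tead3 at both distances.

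**Figure D4:**
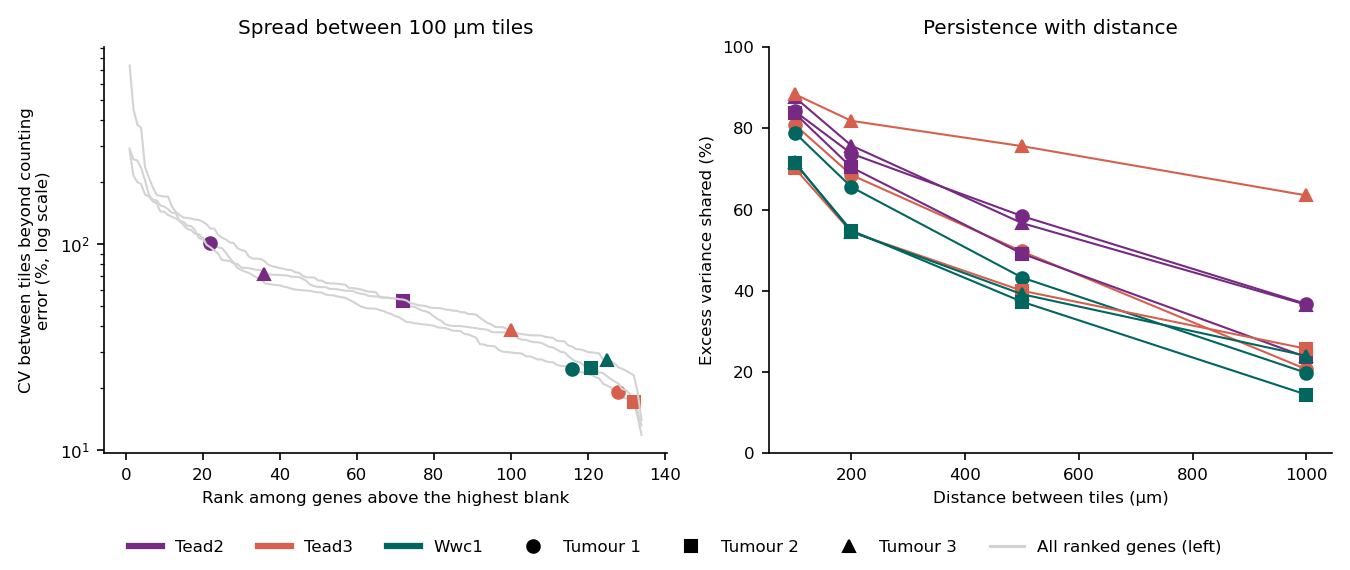
Left, the coefficient of variation between 100 µm tiles beyond counting error (percent, log axis) against rank, with the 134 genes above the highest blank as grey lines, 1 per tumour, and the members as symbols. Right, the share of that variance that tiles have in common (percent) against their distance in µm. Tead2 stands at 102, 52.7 and 71.8 percent, above Tead3 and Wwc1 in each tumour, and the Tead3 curve of tumour 3 falls least.

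Whether transcripts meet in the same cells was read from the product of their counts over the product expected from each cell's depth. A value of 1 stands for independence if depth alone sets the expectation, and the median blank pair, given below, lay above 1. Tead2 with itself gave 2.53, 1.55 and 1.63 in tumours 1, 2 and 3, and 1.19, 1.16 and 1.18 with the expectation taken within tiles, so most of the excess lay between tiles. Wwc1 with itself gave 1.22, 1.22 and 1.14, and 1.14, 1.12 and 1.10 within tiles. Tead3 with itself gave 1.10, 1.07 and 1.05, and 1.06, 1.05 and 1.04 within tiles. The median pair of different genes had 0.98, 0.97 and 0.96 and the median pair of different blanks 1.09, 1.11 and 1.12. Neither median includes a code paired with itself. They are therefore no like background for the products of a member with itself, and none is given here.

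No joint pattern of the members held in all tumours. Tead2 with Wwc1 gave 0.88, 1.15 and 1.04, and their Spearman correlation over tiles was -0.53, 0.22 and 0.41, opposite in tumour 1 to tumours 2 and 3, and the products of tumours 1 and 3 lay below the median blank pair. Tead2 with Tead3 gave 0.91, 1.08 and 0.92, with tile correlations of -0.30, 0.16 and 0.066. Tead3 with Wwc1 gave 1.02, 1.02 and 0.97, with tile correlations of 0.29, 0.012 and 0.37. Every product of Tead3 with Tead2 or Wwc1 lay below the median blank pair of its tumour. In the quintile of tiles with the most Tead2, Wwc1 stood at 30.6, 37.4 and 49.5 per 1000, against 43.6, 29.6 and 34.6 in the quintile with the least, with the same turn between tumours. Tead1 with Tead2 had tile correlations of -0.19, -0.18 and -0.13. All such correlations are over tiles of 1 section that share total counts, and are descriptions.

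The genes whose tile pattern was most like that of Tead2, by mean Spearman correlation over the tumours among genes above the highest blank, were Gata3 (0.59, 0.33 and 0.23), a luminal fate regulator, Ccnd1 (0.23, 0.56 and 0.32), the cyclin D1 gene, Id2 (0.31, 0.38 and 0.36), Notch1 (0.64, 0.036 and 0.28) and Nr4a1 (0.19, 0.58 and 0.16), an immediate early gene. Gata3 is also among the markers that gate these epithelial cells, and gate genes were kept in this ranking. Least like were Wnt7b, a Wnt ligand gene (-0.70, -0.43 and -0.40), Slpi, which encodes a secreted protease inhibitor (-0.65, -0.57 and -0.30), and Jag1 (-0.68, -0.18 and -0.51). In the quintile of tiles with the most Tead2, at 33, 28.6 and 23.8 Tead2 per 1000, Jag1 stood at 0.796, 0.763 and 0.965, against 4.22, 2.22 and 4.28 in the quintile with the least, at 2.04, 6.85 and 2.46 Tead2. Wnt7b stood at 1.15, 0.659 and 0.946 in the Tead2-rich quintile, against 7.99, 1.99 and 2.70 in the Tead2-poor quintile. Slpi stood at 0.489, 1.10 and 1.73 in the rich quintile, against 5.41, 7.78 and 3.56 in the poor quintile. Each of these genes was lower in the Tead2-rich tiles of every tumour, a direction fixed by choosing them as least like Tead2. Within tiles the product of Tead2 with Jag1 was 0.88, 0.94 and 0.93 of that expected, with Wnt7b 0.92, 0.94 and 0.97 and with Slpi 0.91, 0.89 and 0.95. The median gene pair had 0.98, 0.99 and 0.99 within tiles. The rich quintile had 108, 130 and 98.8 transcripts per cell in the median tile, against 98.7, 98.5 and 99.7 in the poor quintile.

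Wwc1 was most like Fzd2 (0.43, 0.47 and 0.58), a Wnt receptor gene, Rnf43 (0.17, 0.44 and 0.51), which encodes a ligase that removes Wnt receptors, Top2a (0.35, 0.32 and 0.44), Lrp5 (0.26, 0.23 and 0.54), a Wnt coreceptor gene, and Mki67 (0.085, 0.31 and 0.55). It was least like Krt14 (-0.36, -0.14 and -0.17), Pdgfa (0.061, -0.33 and -0.40) and Fos (-0.091, -0.10 and -0.44). Top2a and Mki67, the genes that gate cycling cells, met Wwc1 within cells, with products of 1.31, 1.27 and 1.18 and 1.28, 1.28 and 1.19 within tiles. The median gene pair had 0.98, 0.99 and 0.99 within tiles, and both genes were chosen as like Wwc1 from the same counts. In the quintile of tiles with the most Wwc1, Mki67 stood at 8.21, 5.60 and 8.16 per 1000, against 6.74, 1.57 and 2.09 in the quintile with the least, a direction fixed by choosing it as like Wwc1.

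Tead3 was most like Nfkb1 (0.43, 0.084 and 0.57), Notch3 (0.24, 0.24 and 0.53), Timp2 (0.35, 0.075 and 0.53), which encodes a protease inhibitor of the matrix, Chad (0.28, 0.012 and 0.61), a matrix protein gene, and Tgfb3 (0.15, 0.10 and 0.62). It was least like Actn1 (-0.18, -0.091 and -0.60), Thbs1 (-0.18, -0.15 and -0.53) and S100a6 (-0.091, -0.10 and -0.63). All 8 relations were strongest in tumour 3, where Tead3 varied most between tiles. In the quintile of tiles with the most Tead3 in tumour 3, Chad stood at 10.4 per 1000, against 0.499 in the quintile with the least, and Thbs1 at 38.6, against 118, directions fixed in the same way. Over all genes above the highest blank, the median of the mean correlation was 0.032 for Tead2, 0.028 for Tead3 and 0.014 for Wwc1.

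**Figure D5:**
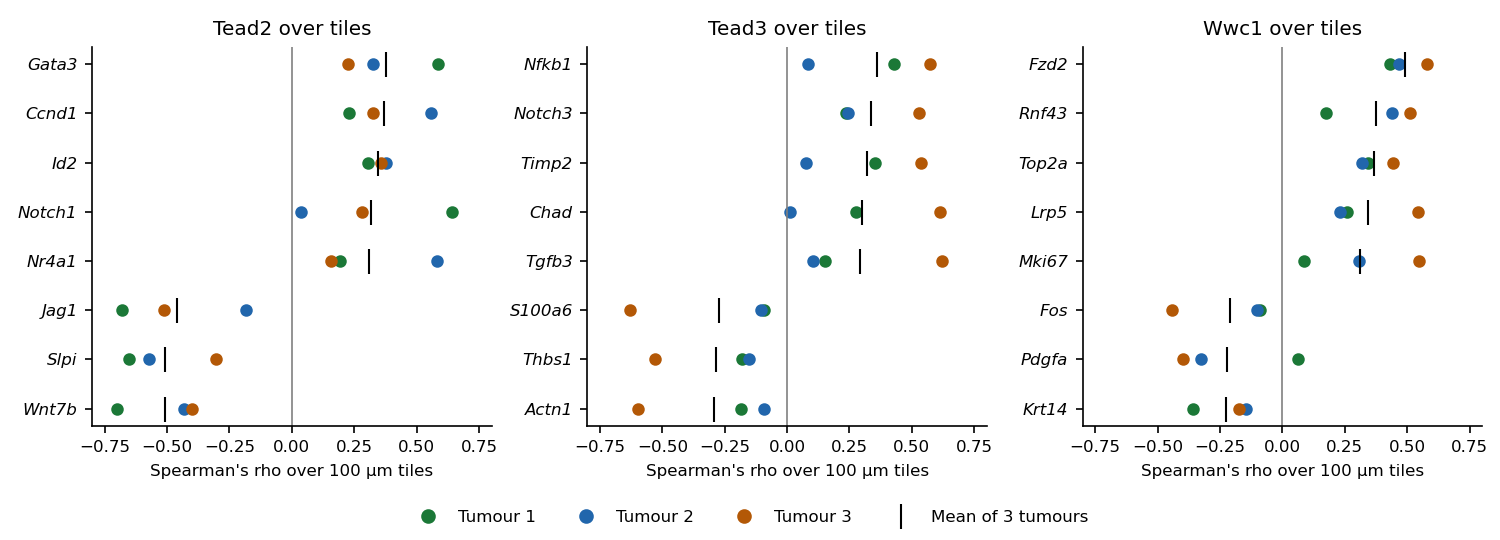
Spearman's rho over 100 µm tiles of epithelial cells (horizontal axes) between each member and its 5 most like and 3 least like genes. Coloured points are tumours and black bars the mean of 3 tumours. The tumours lie below 0 for Tead2 with Wnt7b, Slpi and Jag1 and above 0 for Wwc1 with Fzd2, at 0.43, 0.47 and 0.58.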

How the data were processed

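The deposited tables hold whole-number transcript counts per cell, not normalized, with cell volume and position, per the file headers; the headers state no length unit, and µm was assumed. The design text speaks of 265 genes, and the tables analysed hold 258 and 27 blank codes. Scanpy 1.9.3 is named in the submitters' processing notes without a role, and no source used here names the decoding or segmentation software. Cells with at least 20 panel transcripts, a volume of at least 50 and at most 3 times the tumour's median were kept, which left 619770, 453995 and 673638 cells.

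Members and lists were chosen with earlier results of these data known. Counts were summed per tumour and cell group and tested with edgeR 4.0.16 in R 4.3.3 (quasi-likelihood, total panel counts as library size, filterByExpr, tumour as block, Benjamini-Hochberg over all genes tested, gate genes left out). DESeq2 1.42.0, TMM, other filters, scaling by volume, other gates and fits without 1 tumour were alternatives. Of the listed target genes, 1 is not reported here. Groups of 1 tumour share a section, so the tumour pairs them by design, and their deviations correlated at a median of 0.83 for classes, 0.65 for subsets and 0.66 for the margin. Distances to fibroblasts were 15 and 50 µm in place of 25 and 75 µm, since 38 epithelial cells of tumour 1 lay beyond 75 µm. Named genes were the members, the listed pathway and target genes, and the 5 most and 3 least like genes over tiles of 100 µm. Tiles, shares and co-expression used Python 3.11.15, numpy 2.4.6, pandas 2.3.3 and scipy 1.17.1, and promoter letters came from RefSeq.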

Additional observations from a re-analysis of the deposited data

How the results depend on the processing

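Of 45 member comparisons 12 passed, and all 12 were lower in a gated class than in epithelial cells. Of all genes, 45.0% were called lower in endothelial cells, 11.6% in macrophages and 16.5% in adventitial-type fibroblasts. In matrix fibroblasts and in pericytes the share was 16.1%. Over 450 alternative fits 379 kept direction and side of the threshold, 31 changed sign, 23 gained and 17 lost a call. Log2 fold changes are given in parentheses, and the cause of each change was not tested. With TMM normalization Wwc1 in matrix fibroblasts (-0.24) lost the call. With TMM normalization Wwc1 in cycling cells (0.45) gained a call. With TMM normalization Tead2 in crowded cells (0.018), Tead3 in basal keratin cells (0.0054), Tead3 in cycling cells (0.024), Tead3 near endothelial cells (-0.017), Tead3 near macrophages (-0.033) and Tead3 in large cells (-0.028) changed sign. With DESeq2 Tead3 in matrix fibroblasts (-0.18), Tead3 in pericytes (-0.21), Tead3 in Krt17 and Fn1 cells (-0.46), Tead3 at the margin (-0.32), Tead3 in crowded cells (0.25), Wwc1 in cycling cells (0.45), Wwc1 at the margin (-0.37), Wwc1 near fibroblasts (0.25) and Wwc1 in crowded cells (0.20) gained a call. With DESeq2 Tead2 in crowded cells (0.071), Tead3 in basal keratin cells (0.027), Tead3 in cycling cells (0.022), Tead3 near endothelial cells (-0.034), Tead3 near macrophages (-0.0034) and Tead3 in large cells (-0.028) changed sign. With gate genes left out of the totals Tead2 in adventitial-type fibroblasts (-0.17), Tead3 in adventitial-type fibroblasts (-0.21), Wwc1 in adventitial-type fibroblasts (-0.17), Wwc1 in matrix fibroblasts (-0.090) and Wwc1 in pericytes (-0.21) lost the call. With gate genes left out of the totals Tead3 in basal keratin cells (0.087), Tead3 in cycling cells (0.0090) and Tead3 in large cells (-0.0011) changed sign. With counts scaled by cell volume Wwc1 in matrix fibroblasts (-0.092) and Wwc1 in pericytes (-0.19) lost the call. With counts scaled by cell volume Tead2 near endothelial cells (0.53), Tead2 near macrophages (0.56), Tead2 in large cells (-0.33) and Wwc1 near endothelial cells (0.30) gained a call. That scaling called 130 genes near endothelial cells, 82 near macrophages and 116 in large cells, in either direction. With counts scaled by cell volume Tead2 near fibroblasts (0.30), Tead2 in crowded cells (0.32), Tead3 in basal keratin cells (0.16), Tead3 in cycling cells (0.23), Tead3 in large cells (-0.26), Wwc1 in Il17b cells (0.034), Wwc1 in Krt17 and Fn1 cells (0.098), Wwc1 near macrophages (0.20) and Wwc1 in large cells (-0.17) changed sign. With each comparison fitted alone Tead3 in pericytes (-0.18) and Wwc1 in cycling cells (0.39) gained a call. With 2 transcripts required per gate marker Tead2 in pericytes (-1.02), Tead3 in matrix fibroblasts (-0.48), Tead3 in pericytes (-0.41) and Tead3 in Krt17 and Fn1 cells (-1.06) gained a call. With 2 transcripts required per gate marker Tead3 in basal keratin cells (0.10), Tead3 in cycling cells (0.031), Tead3 at the margin (0.018) and Wwc1 at the margin (0.0090) changed sign. Among cells of 80 to 160 transcripts, a choice made after seeing the data, Tead2 in pericytes (-0.30) gained a call. The share of all genes lower in that fit is not given here. Among cells of 80 to 160 transcripts, a choice made after seeing the data, Tead3 in basal keratin cells (0.015) and Tead3 in cycling cells (0.019) changed sign. Among class cells without epithelial marker transcripts, a choice made after seeing the data, Tead2 in pericytes (-1.68) and Tead3 in matrix fibroblasts (-1.12) gained a call. With distances of 15 and 50 µm Tead3 near endothelial cells (-0.028) changed sign. Without the replicate block on the tumour Tead2 in adventitial-type fibroblasts (-0.34), Tead2 in endothelial cells (-0.51), Tead2 in macrophages (-0.28), Tead2 in matrix fibroblasts (-0.52), Tead3 in adventitial-type fibroblasts (-0.37), Wwc1 in adventitial-type fibroblasts (-0.33), Wwc1 in macrophages (-0.41), Wwc1 in matrix fibroblasts (-0.24) and Wwc1 in pericytes (-0.27) lost the call. Fits without 1 tumour lost or gained a call or changed sign in 22 of 135 cases, and ranged for Tead2 in adventitial-type fibroblasts from -0.47 to -0.25, Tead2 in macrophages from -0.31 to -0.25, Tead2 in cycling cells from -0.010 to 0.22, Tead2 in large cells from -0.14 to 0.10, Tead3 in adventitial-type fibroblasts from -0.38 to -0.35, Tead3 in basal keratin cells from -0.082 to 0.059, Tead3 at the margin from -0.075 to 0.031, Tead3 near endothelial cells from -0.037 to 0.048, Tead3 near macrophages from -0.017 to 0.041, Tead3 in large cells from -0.0077 to 0.029, Wwc1 in pericytes from -0.32 to -0.21, Wwc1 in adventitial-type fibroblasts from -0.36 to -0.29, Wwc1 in matrix fibroblasts from -0.29 to -0.20, Wwc1 near macrophages from -0.16 to 0.019, Wwc1 in crowded cells from -0.014 to 0.13 and Wwc1 in large cells from 0.051 to 0.13. The genes called, with counts that moved by over 1.5 times in parentheses, numbered 99 in adventitial-type fibroblasts (37 without the block, 48 without tumour 2, 180 with strict gates, 170 without epithelial markers), 163 in endothelial cells (89 without the block), 79 in macrophages (34 without the block, 50 without tumour 1, 47 without tumour 2), 84 in matrix fibroblasts (52 by volume, 21 without the block, 34 without tumour 2, 174 without epithelial markers) and 83 in pericytes (26 without the block, 53 without tumour 1, 43 without tumour 2, 162 with strict gates, 151 without epithelial markers). Among epithelial subsets they numbered 5 in basal keratin cells (24 with DESeq2, 8 by volume, 3 without the block, 2 without tumour 1, 3 without tumour 2, 10 with strict gates), 1 in cycling cells (3 with TMM, 18 with DESeq2, 0 without the block, 0 without tumour 1, 0 without tumour 2, 0 without tumour 3, 73 fitted alone, 0 with strict gates), 2 in Il17b cells (6 with TMM, 49 with DESeq2, 8 without gate genes, 37 by volume, 0 without the block, 1 without tumour 1, 14 without tumour 2, 0 without tumour 3, 0 fitted alone, 38 at 80 to 160 transcripts) and 27 in Krt17 and Fn1 cells (70 with DESeq2, 62 by volume, 2 without the block, 1 without tumour 2, 2 without tumour 3, 6 fitted alone, 16 at 80 to 160 transcripts), and by position 69 at the margin (1 with TMM, 22 by volume, 1 without the block, 0 without tumour 1, 0 without tumour 3, 0 with strict gates, 0 at 80 to 160 transcripts), 0 near fibroblasts (52 with DESeq2, 23 by volume, 48 without tumour 1), 29 near endothelial cells (69 with DESeq2, 130 by volume, 0 without the block, 0 without tumour 2, 11 without tumour 3, 13 with strict gates, 13 at 80 to 160 transcripts), 0 near macrophages (23 with DESeq2, 82 by volume, 14 without tumour 2), 17 in crowded cells (0 with TMM, 65 with DESeq2, 0 by volume, 0 without the block, 87 without tumour 1, 50 without tumour 2, 2 without tumour 3, 40 at 40 or more transcripts, 0 with strict gates, 0 at 80 to 160 transcripts) and 0 in large cells (28 with DESeq2, 116 by volume, 35 without tumour 2, 7 without tumour 3, 1 with strict gates). Strict gates left 40 and 77 Il17b cells in tumours 2 and 3, both under 100, so that subset was not fitted. They also left 58 Krt17 and Fn1 cells in tumour 2 and 60 macrophages in tumour 3. These groups were left out, and the strict fits of both used the remaining tumours. The 3 tumours set the precision of every comparison.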
